A study of Mus musculus with 15 samples.

Results

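Endothelial deletion of *Ezh2* was compared with pooled wild type (WT) in erythro-myeloid progenitors (EMPs) of the mouse yolk sac (YS). The 10 libraries compared, of 15 in the series, were chosen by genotype: all 5 Tie2-Ezh2-KO libraries, and as controls the 3 Tie2-Ezh2-WT and 2 Vav-Ezh2-WT libraries as a single group. Of 17454 genes in the deposited table, 14154 were above 0.2 RPKM (reads per kilobase of transcript, scaled to the reads of the library) in at least 1 of these libraries and were tested. The description centres on gene families and functions outside the EC, HE, hematopoietic, EMP and Wnt gene sets of the study, which hold 469 of the tested genes.

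The series asked when in blood development *Ezh2* is needed, using RNA sequencing of EMPs sorted at E10.5 as KIT, CD41 and CD16/32 positive cells negative for SCA1 and lineage markers, each library coming from an individual C57BL/6 YS. Every animal carried floxed *Ezh2* alleles. Tie2-Ezh2-KO also carried *Tie2*-Cre, which recombines in endothelium and so in the blood cells that arise from it, and Vav-Ezh2-KO carried *Vav*-iCre, which recombines in hematopoietic cells. The WT animals lacked Cre, so that Cre itself and the deletion cannot be told apart. Sorted populations were sequenced in bulk from small numbers of cells, so that fewer cells of a type and less RNA per cell cannot be told apart either. The labels do not say which libraries were prepared together.

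EZH2 is the main catalytic subunit of Polycomb repressive complex 2 (PRC2), which methylates histone H3 at the H3K27 position and keeps developmental genes silent outside the lineages that use them. Its usual targets are CpG-rich promoters of transcription factors, morphogens and signalling components, as well as the silent copies of some imprinted genes. EMPs bud from hemogenic endothelium of the YS and give rise to the first definitive erythroid, megakaryocytic and myeloid cells of the embryo.

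Reads on genes, recovered from the steps between RPKM values, were 10407398, 15811738 and 41025074 in Tie2-Ezh2-WT replicates 4, 10 and 12, and 14890780 and 19957939 in Vav-Ezh2-WT replicates 4 and 6. The totals in Tie2-Ezh2-KO replicates 7, 9, 11, 13 and 17 were 15934827, 15284308, 14818723, 26825709 and 16091836. At the lowest total, 1 read on a transcript of 2 kb was worth 0.0480 RPKM. Values of 5 WT and 5 Tie2-Ezh2-KO libraries are listed in these orders, and values after ± are SD over 5 libraries unless SE is stated. Reads came from amplified cDNA and are not independent molecules, so floors drawn from read numbers cover counting error only.

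The genes for the sorted surface proteins were present in every library. These genes were chosen after their values were seen. *Kit* was at 27.9, 29.6, 29.6, 25.1 and 31.0 RPKM in WT against 23.0, 15.2, 24.1, 45.8 and 31.8 RPKM in Tie2-Ezh2-KO libraries. *Itga2b*, which encodes CD41, lay between 24.9 and 41.7 RPKM in WT, against between 18.2 and 38.9 RPKM in Tie2-Ezh2-KO. *Fcgr3*, which encodes CD16, lay between 101 and 152 RPKM and between 66.9 and 108 RPKM. The groups overlapped for all 3 genes, and none passed the test, with limma adjusted p-values of 0.941, 0.899 and 0.131.

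A pair of libraries stood apart in genes of the visceral endoderm, the absorptive layer next to the blood islands of the YS. The summed level of its 22 measured markers was 272, 26.7, 28.5, 25.9 and 33.4 RPKM in WT against 388, 52.8, 34.5, 34.4 and 48.0 RPKM in Tie2-Ezh2-KO, so that Tie2-Ezh2-WT replicate 4 and Tie2-Ezh2-KO replicate 7 were far above the rest. The most abundant marker on average was *Trf*, at 24.7 and 27.1 RPKM in WT and Tie2-Ezh2-KO, and in Tie2-Ezh2-KO replicate 7 it was *Apoa1*, at 71.7 RPKM. *Alb* was at 0 in all 10 libraries. The pair holds 1 library of each group, and among the other 8 libraries every knockout sum was above every WT sum. Leaving both out, an alternative chosen after seeing the data, gave 217 changed genes where all libraries gave 386 of 14154 (2.73%).

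*Ezh2* itself (chr6:47530274-47595270, GRCm38) was at 36.9, 39.5, 30.1, 42.0 and 41.5 RPKM in WT against 27.8, 26.2, 24.8, 29.5 and 26.5 RPKM in Tie2-Ezh2-KO libraries. Every Tie2-Ezh2-KO library was below every WT library. These are whole-gene values, in which the deleted exons are not separated from the rest of the transcript, and *Ezh2* fell by 0.48 on the log2 scale (SE 0.12, adjusted p = 0.0418). It passed the threshold in 3 of the 10 fits that left out 1 library, with adjusted p-values up to 0.126 (without Vav-Ezh2-WT replicate 4). Of 11 PRC2 subunits and accessory proteins tested, *Ezh2* was the 1 changed gene and none passed by limma-voom; the median log2 change was -0.22 beside 0.01 over all genes tested.

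Where a count of 0 changed genes is given for a family, the numbers in brackets are its genes at an unadjusted limma p under 0.05 and those past the adjusted threshold by limma-voom on the recovered reads. Changed genes, those with a limma adjusted p under 0.05, leaned to the higher side. Of the 386, 343 rose (2.42% of tested genes) and 43 fell (0.304%). The median change was 1.62 on the log2 scale among the higher genes and -1.34 among the lower ones. Outside the 5 gene sets of the study lay 355 of them, 316 higher and 39 lower, and all Tie2-Ezh2-KO libraries were on the same side of all WT libraries for 301 of these 355. Over all tested genes, 567 (4.01%) had groups that did not overlap, and 329 of them were among the 386. All 386 genes kept their sign under quantile normalization and under scaling to a common median, which moved the median of all genes to -0.03 and 0.03. Such shifts are small beside the median changes of 1.62 and -1.34, so the kept signs are no test of stability.

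Many of the higher genes had low levels in WT EMPs, though 220 of the 343 had reads in every WT library. Their median WT level was 0.649 RPKM, against 8.86 RPKM for the lower genes and 4.50 RPKM for all genes tested. The filter of 0.2 RPKM admits genes seen in the knockouts alone, and the median was 1.498 RPKM where genes had to exceed 1 RPKM in at least 3 libraries. By mean WT level, 196 of the higher genes were under 1 RPKM, 105 were between 1 and 10 RPKM and 42 were above 10 RPKM. The 4375 tested genes under 1 RPKM in WT had a median level of 0.179 RPKM in WT against 0.259 RPKM in Tie2-Ezh2-KO. A list made mostly of such genes is therefore not like for like with all genes tested. Members above 1 RPKM in WT numbered 16 of 49 among other homeobox genes, 8 of 28 among matrix glycoproteins and 13 of 49 among channels. For 25 higher genes no WT library had a read, and 1 lower gene, *Mir93*, listed as a gene of its own and chosen after its values were seen, had no read in any Tie2-Ezh2-KO library. For a gene without WT reads, the fold is given as a lower bound, using 3 reads in each WT library averaged over the libraries as the floor. The pseudocount of 0.2 RPKM makes log2 changes of such low genes smaller than the ratio of their levels.

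**Figure D1:**
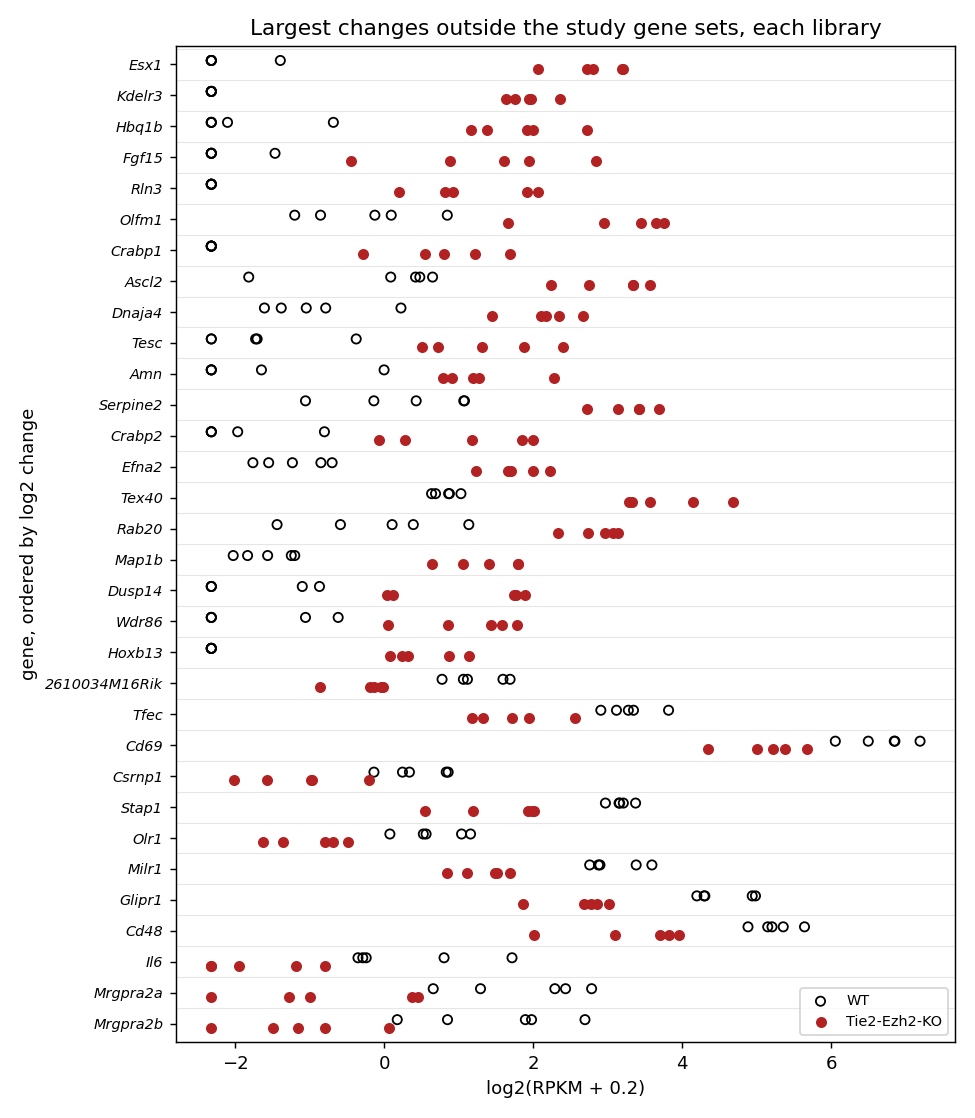
RPKM of the 20 largest rises and 12 largest falls outside the gene sets of the study in each library, on a log2 axis of RPKM + 0.2; open circles are the 5 WT and filled circles the 5 Tie2-Ezh2-KO libraries. The groups do not overlap for any of these genes, which were chosen for that.

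The rises given next are among the 20 largest outside the gene sets of the study, and no theme among them was tested. *Esx1*, an X-linked homeobox gene of the placenta (chrX:137115397-137122131), was at 0.180, 0, 0, 0 and 0 RPKM in WT against 9.02, 8.96, 6.37, 6.80 and 4.0005 RPKM in Tie2-Ezh2-KO libraries (adjusted p = 9.74e-07). *Kdelr3*, a receptor that returns escaped chaperones to the endoplasmic reticulum, was at 0 in every WT library and at 4.93, 3.66, 3.72, 3.16 and 2.90 RPKM in Tie2-Ezh2-KO, at least 28.8-fold higher (adjusted p = 9.37e-07). Each Tie2-Ezh2-KO library showed both genes, and just a trace of *Esx1* was seen in 1 WT library. *Olfm1*, a secreted glycoprotein of the nervous system, was at 1.60, 0.867, 0.235, 0.353 and 0.716 RPKM in WT against 12.4, 2.98, 13.3, 7.55 and 10.7 RPKM in Tie2-Ezh2-KO, with the lowest knockout value in replicate 9 (log2 change 3.35, adjusted p = 5.19e-04). *Rln3*, a neuropeptide of the relaxin family, was at 0 in WT and between 0.942 and 3.99 RPKM in Tie2-Ezh2-KO, at least 6.19-fold higher.

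Further genes of the 20 largest rises were of various functions. *Serpine2*, a secreted inhibitor of thrombin and other serine proteases, was at 0.281, 0.708, 1.91, 1.90 and 1.15 RPKM in WT against 12.7, 10.47, 8.57, 6.39 and 10.52 RPKM in Tie2-Ezh2-KO (log2 change 3.00, adjusted p = 3.49e-04). *Rab20*, a GTPase of endosome maturation, lay between 0.169 and 1.996 RPKM in WT, against between 4.82 and 8.599 RPKM in Tie2-Ezh2-KO (log2 change 2.93). *Tesc*, a calcium-binding protein, and *Dnaja4*, a cochaperone, had log2 changes of 3.06 and 3.07. In each of these 4 genes the lowest knockout library was above the highest WT library. *Dusp14*, a phosphatase acting on MAP kinases, and *Wdr86*, a WD repeat protein, reached means of 2.31 ± 1.33 and 2.20 ± 0.966 RPKM from 0.123 ± 0.170 and 0.146 ± 0.209 RPKM in WT. *Tex40*, now named *Catsperz* and known from the sperm calcium channel complex, went from 1.57 ± 0.195 to 14.8 ± 6.75 RPKM (log2 change 2.98, adjusted p = 4.55e-05). *Amn*, a partner of cubilin in absorptive epithelia, went from 0.183 ± 0.348 to 2.43 ± 1.28 RPKM, and its highest value in each group was in the library with the high visceral endoderm sum.

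Rises among transcription factors of other lineages are given beside the 2.42% of all tested genes that rose. Of 13 Hox genes tested, 1 rose, *Hoxb13*, a posterior gene that lies apart from the rest of its cluster. It was at 0 in all WT libraries and at 1.63, 1.99, 0.977, 1.05 and 0.852 RPKM in Tie2-Ezh2-KO, at least 9.45-fold higher (adjusted p = 8.88e-05). Of 49 other homeobox genes, 4 rose and none fell, with a median log2 change of 0.25 beside 0.01 over all genes tested. Besides *Esx1* these were *Msx2* and *Isl1*, both in the EC set of the study, and *Lbx2*. *Msx2*, a factor of limb and craniofacial tissue, was at 0, 0, 0, 0.0932 and 0 RPKM in WT against 1.68, 0.938, 1.44, 0.914 and 1.18 RPKM in Tie2-Ezh2-KO, and *Lbx2* was at 0.470, 0.929, 0.358, 0.658 and 0.491 and 2.46, 1.36, 4.13, 4.70 and 1.75 RPKM. All knockout libraries exceeded all WT libraries for both genes.

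Basic helix-loop-helix developmental factors gave 2 rises among 26 tested genes, and their median change was 0.36. *Ascl2*, an imprinted regulator of the placenta and of intestinal stem cells, was at 1.19, 1.14, 0.862, 0.0833 and 1.37 RPKM in WT against 11.6, 4.51, 6.53, 9.92 and 9.91 RPKM in Tie2-Ezh2-KO (log2 change 3.08, adjusted p = 8.75e-04). *Tcf15*, a factor of somite epithelium, was at 0.619, 0.543, 0.367, 0.216 and 1.88 RPKM and 5.12, 5.27, 5.44, 3.96 and 5.21 RPKM (log2 change 2.72, adjusted p = 6.18e-04). Every knockout library exceeded every WT library for both genes, and the WT library nearest to the knockouts for *Tcf15* was Vav-Ezh2-WT replicate 6. Of 34 paired, T-box, Sox, Fox and Zic factors, 1 rose, *Tbx15*, a limb and muscle factor without WT reads, at 0.141, 0.128, 1.27, 0.930 and 1.10 RPKM. Its call was held in 2 of 10 fits that left out 1 library, with adjusted p-values up to 0.0637 (without Tie2-Ezh2-KO replicate 13). None of 23 Gata, Klf and Sp factors, which include blood regulators, passed the test (4 and 0); *Klf1*, the most abundant, averaged 145 ± 29.9 RPKM in WT against 203 ± 51.8 RPKM in Tie2-Ezh2-KO.

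Chromatin regulators were tested as several lists. Of 24 PRC1 subunits 1 rose (4.17%, beside 2.42% of all genes tested), *Bmi1*, a subunit of the complex that monoubiquitinates histone H2A. It was at 15.6, 11.5, 10.9, 10.7 and 10.3 RPKM in WT against 38.2, 30.5, 48.5, 47.5 and 36.4 RPKM in Tie2-Ezh2-KO, without overlap (log2 change 1.75, adjusted p = 5.54e-05). *Commd3*, its neighbour on chromosome 2, rose from 128 ± 14.05 to 191 ± 44.4 RPKM (log2 change 0.56), a call held in 3 of 10 fits without 1 library and lost with adjusted p-values up to 0.120 (without Vav-Ezh2-WT replicate 4). None of 14 DNA methylation and Tet genes (0 and 0) and none of 15 demethylases and methyltransferases of H3K27 and H3K4 (0 and 0) passed the test. Their most abundant members, *Mbd3* and *Kdm1a*, averaged 175 ± 15.3 and 48.5 ± 4.23 RPKM in WT against 191 ± 37.7 and 46.1 ± 8.05 RPKM in Tie2-Ezh2-KO. In a family chosen after its values were seen, 2 of 8 linker histones rose, *H1f0*, the variant of cells leaving the cycle, from 54.8 ± 3.98 to 98.8 ± 14.8 RPKM (log2 change 0.84, adjusted p = 8.75e-04), and *H1fx*.

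Genes of S, G2 and M phase were nearly level. None of 30 S phase genes (0 and 0) and none of 25 genes of G2 and M phase (0 and 0) passed the test, with median changes of -0.03 and 0.08. *Rrm2* and *Ccnb1*, the most abundant, averaged 477 ± 59.0 and 437 ± 81.2 RPKM in WT against 475 ± 16.0 and 465 ± 63.2 RPKM in Tie2-Ezh2-KO. Of 9 D, E and A cyclins and their kinases 1 rose, *Ccnd1*, a cyclin of G1 phase, from between 0.481 and 1.12 RPKM to between 1.64 and 2.57 RPKM (adjusted p = 0.00740). Of 8 CDK inhibitors, with a median change of 0.49, 6 positive and 3 at an unadjusted limma p under 0.05, 1 rose, the imprinted *Cdkn1c*, at 4.70, 1.89, 1.996, 0.415 and 2.50 RPKM in WT against 12.7, 5.96, 9.80, 8.58 and 8.67 RPKM in Tie2-Ezh2-KO (log2 change 2.14, adjusted p = 0.0115). Every knockout value of *Cdkn1c* was above every WT value, though WT spread widely around its mean.

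Imprinted genes were divided into those of the *Kcnq1ot1* domain, where genes are silenced on the paternal copy, and the rest. Of 13 tested genes of the domain 3 rose, *Phlda2*, *Ascl2* and *Cdkn1c*, with a median change of 0.10 over all 13. *Phlda2*, a growth-restraining gene of the placenta that is in the EC set, went from 1.93 ± 2.14 to 22.5 ± 4.86 RPKM (log2 change 4.08, adjusted p = 0.00110). Of 31 other imprinted genes 1 rose (3.23%, near the 2.42% of all genes tested). This was *Sfmbt2*, a Polycomb-related gene of extraembryonic tissue, from between 0.210 and 0.707 RPKM to between 1.24 and 2.28 RPKM. The median over these 31 was 0.25, 8 had an unadjusted limma p under 0.05, and 2 passed by limma-voom and 3 under scaling to a common median. With *Esx1*, *Phlda2* and *Ascl2*, 3 of 15 trophoblast genes rose, and their median change was 0.28. Of 30 germline genes tested, *Tex40* was the 1 that rose (3.33%, near the 2.42% of all genes tested that rose). Allele-specific expression was not measured.

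Of 10 Fgf ligands and receptors tested, 3 rose and none fell, and all 10 had a positive change, with a median of 0.72 beside 0.01 over all genes tested. Just 2 of the 10 had a WT mean above 1 RPKM, so that the median over all genes is not a like reference. *Fgf3*, a ligand of the inner ear and tail bud, was at 6.28, 4.56, 6.84, 10.2 and 10.3 RPKM in WT against 55.3, 38.4, 26.4, 26.2 and 32.3 RPKM in Tie2-Ezh2-KO (log2 change 2.20, adjusted p = 1.41e-04). *Fgf15*, an endocrine ligand of the gut, was at 0 in 4 WT libraries and at 0.162 RPKM in the remaining 1, against 3.65, 6.99, 1.64, 0.536 and 2.85 RPKM in Tie2-Ezh2-KO. *Fgf13*, an intracellular member that binds sodium channels, went from 1.84 ± 0.563 to 4.83 ± 1.33 RPKM. For all 3 genes the knockout libraries lay above the WT libraries.

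Of 32 BMP and TGF-beta ligands, receptors and inhibitors 3 rose, with a median change of 0.48. *Bmp4*, a ligand of mesoderm and blood induction that is in the EC set, was at 0.530, 0.381, 0.293, 0 and 0.0503 RPKM in WT against 3.21, 5.94, 4.06, 0.879 and 4.52 RPKM in Tie2-Ezh2-KO (log2 change 3.08, adjusted p = 0.00216), lowest among the knockouts in replicate 13. *Ltbp3*, which holds latent TGF-beta in the matrix, was near 0 in WT, at 0.0233 ± 0.0521 RPKM, and at 0.423 ± 0.158 RPKM in Tie2-Ezh2-KO. *Fstl1*, a secreted BMP antagonist, rose by a log2 change of 0.87, and its call was held in 5 of 10 fits without 1 library (adjusted p up to 0.0747, without Vav-Ezh2-WT replicate 4). None of 22 Notch (8 and 1) and none of 9 Hedgehog pathway genes (2 and 0) passed the test. *Hes6* and *Smo*, their most abundant members, averaged 139 ± 8.51 and 3.46 ± 1.49 RPKM in WT against 163 ± 13.5 and 6.29 ± 3.53 RPKM in Tie2-Ezh2-KO. The Notch median was 0.38, and 1 Notch gene passed under quantile normalization.

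The retinoid pathway had 3 rises among 16 tested genes and a median change of 0.62. Both cellular retinoic acid binding proteins were among them. *Crabp1* was at 0 in all WT libraries and at 2.12, 0.618, 1.55, 1.26 and 3.02 RPKM in Tie2-Ezh2-KO, at least 7.03-fold higher (adjusted p = 1.22e-04), and *Crabp2* was at 0, 0, 0, 0.373 and 0.0557 and 3.42, 1.02, 0.750, 2.07 and 3.80 RPKM (log2 change 3.00, adjusted p = 0.00138). The groups did not overlap for either gene. *Aldh1a2*, which makes retinoic acid, had no WT reads and 0.887, 0.116, 0.268, 0.329 and 0.137 RPKM in Tie2-Ezh2-KO. It kept its call in 2 of 10 fits that left out 1 library (adjusted p up to 0.106, without Vav-Ezh2-WT replicate 4).

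Other ligands, binding proteins and receptors rose in small numbers. Of 15 insulin and Igf pathway genes, *Igfbp2* and *Igfbp7* rose, both carrier proteins; *Igfbp2*, in the HE set, had no WT reads and lay between 0.281 and 0.814 RPKM in Tie2-Ezh2-KO, and *Igfbp7* went from 5.10 ± 1.26 to 11.2 ± 1.29 RPKM. Of 37 axon guidance genes, *Efna2*, a membrane-anchored ephrin, rose from 0.246 ± 0.137 to 3.29 ± 0.878 RPKM (log2 change 2.98, adjusted p = 9.68e-05), and so did the receptor *Ephb2* (log2 change 1.13). Of 45 interleukins and their receptors 1 rose and 2 fell, where 2.42% of all genes tested rose and 0.304% fell. The risen gene was *Il20ra*, from 2.10 ± 1.01 to 8.19 ± 1.79 RPKM (log2 change 1.94, adjusted p = 0.00119). Of 31 genes of the tumour necrosis factor family 1 rose, the receptor *Tnfrsf19* (3.23%, near the share of all genes tested). Among 5 GDNF ligands and receptors, a family chosen after its values were seen, the ligand *Nrtn* and the receptor *Gfra4* rose. *Nrtn* was at 0.939, 0.680, 2.29, 1.51 and 1.91 RPKM in WT against 11.5, 7.74, 7.72, 8.34 and 8.81 RPKM in Tie2-Ezh2-KO, so that no knockout library came near WT (log2 change 2.52, adjusted p = 1.62e-04). Fits without 1 library held the calls of *Ephb2*, *Tnfrsf19* and *Gfra4* in 2, 4 and 8 of 10, with adjusted p-values up to 0.0969 (without Vav-Ezh2-WT replicate 6), 0.0988 and 0.0515 (both without Tie2-Ezh2-WT replicate 10).

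A minority of matrix and cell surface glycoproteins, and of enzymes that modify glycan chains, rose. Of 28 laminins and other basement membrane and matrix glycoproteins 4 rose and none fell, with a median change of 0.69 beside 0.01 over all genes tested. *Gpc1*, a glypican, was at 0, 0, 0.192, 0.303 and 0 RPKM in WT against 1.02, 1.03, 1.48, 1.84 and 2.05 RPKM in Tie2-Ezh2-KO (log2 change 2.57, adjusted p = 6.18e-04). The syndecans *Sdc1* and *Sdc2* went from 4.48 ± 0.322 and 0.0736 ± 0.109 RPKM to 12.3 ± 3.30 and 0.593 ± 0.174 RPKM, and the fibulin *Fbln1* from 1.68 ± 0.257 to 5.17 ± 1.49 RPKM. All 4 separated the groups fully. Of 23 glycan sulphotransferases and chondroitin polymerases, a family chosen after its values were seen, 5 rose and none fell, *Chst10*, *Chst13*, *Hs6st2*, *Chpf* and *Gal3st1*, and the median change was 0.39. *Hs6st2*, which sulphates heparan chains and is in the EC set, and *Chpf*, a chondroitin polymerase in the HE set, had adjusted p-values of 0.00325 and 0.00315. *Chst13* and *Gal3st1* held their calls in 3 and 4 of 10 fits without 1 library (adjusted p up to 0.0908, without Vav-Ezh2-WT replicate 4, and 0.0629, without Tie2-Ezh2-WT replicate 12). Of 6 collagens tested, *Col5a1*, in the EC set, rose with a log2 change of 1.19, held in 2 of 10 such fits (up to 0.0885, without Tie2-Ezh2-WT replicate 12).

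Epithelial junction and keratin genes gave 9 rises and no fall among 51 tested genes, with a median change of 0.38, with 6 rises under quantile normalization and 3 genes past the threshold by limma-voom. *Epcam*, an adhesion molecule of epithelia, was at 0.793, 0.614, 0.154, 0.554 and 0.219 RPKM in WT against 6.24, 3.90, 2.36, 3.94 and 2.92 RPKM in Tie2-Ezh2-KO (log2 change 2.65, adjusted p = 5.90e-04). The tight junction gene *Cldn3* was at 0.152, 0, 0, 0 and 0.198 and 1.89, 1.45, 0.908, 0.915 and 0.787 RPKM (log2 change 2.37, adjusted p = 7.26e-04). Neither gene overlapped between groups, and *Epcam* was highest in Tie2-Ezh2-KO replicate 7, the library with the high visceral endoderm sum. Others were *Cldn10*, *Cldn13*, *Gjc1*, *Ocln*, *Pkp3* and *Krt18*. Of these, *Cldn10* alone kept its call in all 10 fits without 1 library, and the remaining 5 lost it with adjusted p-values from 0.0598 (*Krt18*, without Vav-Ezh2-WT replicate 4) to 0.124 (*Ocln*, without Vav-Ezh2-WT replicate 4). Of 20 cadherins 1 rose, the desmosomal *Dsg2* (log2 change 1.68), held in 1 of 10 such fits (adjusted p up to 0.107, without Vav-Ezh2-WT replicate 4). None of 18 integrins passed the test (0 and 0), and *Itgb1*, the most abundant, averaged 59.8 ± 4.54 and 60.6 ± 13.0 RPKM.

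Cytoskeletal genes of neurons gave 3 rises among 29 tubulins and neuronal cytoskeleton genes, whose median change was 0.09. *Map1b*, a microtubule-associated protein of growing axons, was at 0.138, 0.235, 0.0452, 0.221 and 0.0803 RPKM in WT against 2.45, 1.89, 3.29, 3.27 and 1.36 RPKM in Tie2-Ezh2-KO (log2 change 2.92, adjusted p = 1.18e-04). The knockout libraries all lay above WT. *Tubb3*, a neuronal tubulin, and *Nefh*, a neurofilament, rose with log2 changes of 1.79 and 1.42. Of 23 synaptic genes 1 rose (4.35%, beside 2.42% of all genes tested), the scaffold *Homer2* (log2 change 1.13). Calls of *Tubb3*, *Nefh* and *Homer2* were held in 3, 8 and 4 of 10 fits without 1 library, with adjusted p-values up to 0.0845 (without Tie2-Ezh2-WT replicate 10), 0.0569 and 0.0725 (both without Tie2-Ezh2-KO replicate 17). Among 32 LIM domain proteins, a family chosen after its values were seen, 5 rose, *Crip2*, *Pdlim4*, *Isl1*, *Lmo1* and *Crip1*, and *Csrp1* fell. *Crip2*, in the HE set, went from 6.14 ± 3.40 to 49.4 ± 16.4 RPKM (log2 change 3.08, adjusted p = 9.68e-05). *Lmo1* was held in 4 of 10 such fits (up to 0.0932, without Tie2-Ezh2-KO replicate 17).

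Channels and transporters were tested as separate lists. Of 49 potassium, sodium, calcium and Trp channels 4 rose and none fell (8.16%, beside 2.73% over all genes tested), all of them potassium channel subunits, *Kcng2*, *Kcnk1*, *Kcne1l* and *Kcns3*. The median change was 0.22, and -0.02 under quantile normalization. *Kcnk1*, a background channel, had no WT reads and was at 3.05, 0.738, 2.52, 0.727 and 0.566 RPKM in Tie2-Ezh2-KO, at least 19.4-fold higher (adjusted p = 9.46e-04), and *Kcng2*, a silent modifier subunit, was at 0.205, 0.225, 0.182, 0 and 0 and 1.87, 1.14, 1.87, 2.41 and 3.05 RPKM. Of 254 solute carriers 10 rose and 1 fell (4.33%), with a median change of 0.04, and -0.01 under quantile normalization. The largest rises were *Slc7a4*, related to cationic amino acid carriers, from 0.517 ± 0.203 to 4.15 ± 1.53 RPKM (log2 change 2.58, adjusted p = 2.41e-04), the riboflavin carrier *Slc52a3* (log2 change 2.42), the proline carrier *Slc6a20a*, without WT reads and at least 8.605-fold higher, and *Slc35f2* (log2 change 1.78). At a higher level, the glutamine carrier *Slc38a5*, chosen after its values were seen, was at 36.2, 17.1, 43.1, 29.2 and 29.1 RPKM in WT against 134.3, 61.4, 88.7, 71.4 and 64.0 RPKM in Tie2-Ezh2-KO, without overlap. The 1 solute carrier that fell, *Slc31a2*, linked to copper uptake, was held in 2 of 10 fits without 1 library (adjusted p up to 0.138, without Tie2-Ezh2-WT replicate 10).

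The metabolic lists held between 0 and 3 changed genes each. Of 32 genes of glycolysis and glucose uptake 1 rose (3.1%, near the 2.42% of all genes tested). This was *Ldhb*, the lactate dehydrogenase subunit of oxidative tissues, at 14.5, 8.43, 17.01, 8.69 and 11.5 RPKM in WT against 48.4, 53.7, 58.0, 24.3 and 46.9 RPKM in Tie2-Ezh2-KO (log2 change 1.92, adjusted p = 3.83e-04). Of 97 nuclear-encoded genes of oxidative phosphorylation, *Cox4i2*, an alternative subunit of cytochrome oxidase, rose (log2 change 0.86), 1.03% of the list beside 2.73% over all genes tested. Of 21 genes of serine, folate and amino acid synthesis 3 rose, *Cth* and *Cbs* of the route from homocysteine to cysteine and *Gldc* of glycine cleavage, with log2 changes of 1.06, 1.90 and 1.35. Their calls were held in 9, 6 and 5 of 10 fits without 1 library, with adjusted p-values up to 0.0526 (without Tie2-Ezh2-KO replicate 11), 0.0706 (without Vav-Ezh2-WT replicate 4) and 0.0628 (without Tie2-Ezh2-WT replicate 4). *Gatm*, of creatine synthesis and chosen after its values were seen, rose from 4.23 ± 0.896 to 17.9 ± 3.76 RPKM (log2 change 2.03, adjusted p = 8.88e-05). None of 22 genes of cholesterol synthesis (0 and 0), 20 of heme synthesis (2 and 0) and 82 of cytoplasmic ribosomal proteins (0 and 0) passed the test. *Fdps*, the most abundant of the cholesterol list, averaged 94.6 ± 11.7 RPKM in WT against 93.7 ± 13.0 RPKM in Tie2-Ezh2-KO.

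Metallothioneins, small cysteine-rich proteins that bind zinc and copper, rose as a family, chosen after its values were seen. All 3 tested genes rose, in a row on chromosome 8, and *Mt1* and *Mt2* are in the EMP set. *Mt1* was at 260.4, 302, 392, 371 and 331 RPKM in WT against 518, 707, 490.4, 489.8 and 671 RPKM in Tie2-Ezh2-KO (log2 change 0.79, adjusted p = 0.00532), and *Mt2* was at 5.36, 2.39, 9.78, 5.44 and 6.49 and 46.8, 37.3, 21.7, 25.5 and 40.6 RPKM (log2 change 2.57, adjusted p = 2.41e-04). *Mt3*, the member of brain, had no WT reads and was at 0.817, 0.122, 0.878, 0.346 and 0.462 RPKM in Tie2-Ezh2-KO. The knockout libraries lay above the WT libraries for each of them. Of 45 genes of glutathione and antioxidant enzymes, also chosen after their values were seen, 5 rose and none fell, with a median change of 0.03. *Srxn1*, sulfiredoxin, went from 3.67 ± 0.747 to 9.34 ± 2.32 RPKM, and *Gpx8*, a peroxidase of the endoplasmic reticulum, from 2.64 ± 0.453 to 6.11 ± 1.19 RPKM. *Gpx7*, *Gstt1* and *Mgst3* lost their calls in fits without 1 library (adjusted p up to 0.0757, without Tie2-Ezh2-KO replicate 17, 0.0711, without Tie2-Ezh2-KO replicate 7, and 0.134, without Vav-Ezh2-WT replicate 4).

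The promoters of the metallothionein genes are shown because these neighbours moved together. Each window runs from 250 bases before to 50 bases after a transcript start on the plus strand of GRCm38.p6, from RefSeq, and the start used for *Mt1* lies inside its gene span. Capitals mark the core letters of the metal response element, TGCACNC or TGCGCNC, on either strand. *Mt1* had 3 matches, *Mt2* 4 and *Mt3* 1. Of 32851 promoter windows of this length, 25.7% held at least 1 match and 1.97% held 3 or more. Binding at these letters was not measured. The windows are at chr8:94178839-94179138, chr8:94172368-94172667 and chr8:94152357-94152656.
Mt1: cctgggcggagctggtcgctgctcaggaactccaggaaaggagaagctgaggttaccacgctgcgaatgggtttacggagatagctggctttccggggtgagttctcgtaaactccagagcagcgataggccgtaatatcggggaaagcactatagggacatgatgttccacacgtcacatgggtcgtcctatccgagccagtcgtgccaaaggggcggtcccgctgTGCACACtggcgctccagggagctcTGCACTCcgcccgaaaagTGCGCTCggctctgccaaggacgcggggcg
Mt2: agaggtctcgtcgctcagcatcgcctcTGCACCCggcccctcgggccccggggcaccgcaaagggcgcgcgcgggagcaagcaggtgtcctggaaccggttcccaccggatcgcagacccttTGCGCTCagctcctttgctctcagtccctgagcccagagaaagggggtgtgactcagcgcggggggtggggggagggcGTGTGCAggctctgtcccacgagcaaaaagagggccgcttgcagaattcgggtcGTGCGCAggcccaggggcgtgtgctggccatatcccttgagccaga
Mt3: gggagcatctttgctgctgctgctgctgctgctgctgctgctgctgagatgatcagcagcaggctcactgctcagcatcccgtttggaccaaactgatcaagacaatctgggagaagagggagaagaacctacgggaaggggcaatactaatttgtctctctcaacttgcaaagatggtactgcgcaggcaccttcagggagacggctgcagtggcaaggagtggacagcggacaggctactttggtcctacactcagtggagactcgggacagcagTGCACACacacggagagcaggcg

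Genes of protein folding and cell death were tested as separate lists. Of 28 genes of folding and retrieval in the endoplasmic reticulum, *Kdelr3* was the 1 that rose (3.57%, beside 2.42% of all genes tested). Of 32 p53 targets and apoptosis genes 2 rose, *Bik*, a killer of the BH3-only group, from between 0 and 0.712 RPKM to between 1.36 and 2.64 RPKM (log2 change 2.29, adjusted p = 0.00321), and *Phlda3*, an inhibitor of AKT (log2 change 1.20). *Phlda3* was held in 7 of 10 fits without 1 library (adjusted p up to 0.0568, without Tie2-Ezh2-KO replicate 7). In the BCL2 family, chosen after its values were seen, *Bik* and *Bok* rose among 19 tested genes. *Bok*, a relative of BAX, went from 2.32 ± 0.684 to 7.14 ± 1.70 RPKM (adjusted p = 0.00216). Of 10 Bex and Tceal genes, X-linked neighbours of uncertain function, *Bex2* rose from 14.2 ± 1.93 to 47.5 ± 6.54 RPKM (log2 change 1.73, adjusted p = 1.49e-05) and *Bex1* from 23.6 ± 6.76 to 49.1 ± 10.2 RPKM. Both separated the groups.

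Antigen presentation genes of the major histocompatibility complex rose in part. Of 23 genes of MHC class I and its loading, the immunoproteasome subunits *Psmb8* and *Psmb9* rose. *Psmb8* was at 21.6, 28.3, 34.2, 30.9 and 29.3 RPKM in WT against 76.0, 77.8, 69.9, 57.6 and 78.9 RPKM in Tie2-Ezh2-KO, without overlap (log2 change 1.32, adjusted p = 9.68e-05), while *Psmb9* overlapped, was held in 3 of 10 fits without 1 library and reached an adjusted p of 0.107 (without Tie2-Ezh2-KO replicate 7). Of 9 MHC class II genes, a family chosen after its values were seen, *H2-Ab1* rose, at 9.66, 4.61, 7.46, 5.97 and 3.70 RPKM in WT against 37.1, 29.2, 25.8, 20.3 and 25.9 RPKM in Tie2-Ezh2-KO (log2 change 2.15, adjusted p = 1.22e-04). No knockout library fell within the WT range. None of 37 interferon response genes passed the test (8 and 0), and *Ifitm2*, the most abundant, averaged 314 ± 61.1 RPKM in WT against 428 ± 105 RPKM in Tie2-Ezh2-KO. Of 9 Src family and related kinases, chosen after their values were seen, *Fgr*, *Lck* and *Matk* rose; *Matk* kept its call in all 10 fits without 1 library, and *Fgr* and *Lck* reached adjusted p-values of 0.0586 (without Vav-Ezh2-WT replicate 4) and 0.0871 (without Tie2-Ezh2-KO replicate 13).

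The falls given next are among the 12 largest outside the gene sets of the study, and no theme among them was tested. *Cd48*, a SLAM-family receptor, was at 35.3, 49.7, 40.8, 36.7 and 29.3 RPKM in WT against 15.4, 12.8, 3.84, 8.39 and 13.98 RPKM in Tie2-Ezh2-KO, and fell by 1.93 on the log2 scale (adjusted p = 0.00216), the 1 change among 10 SLAM receptors and adaptors. *Glipr1*, a secreted protein of myeloid cells, was at 19.6, 18.1, 19.4, 31.4 and 30.5 and 7.02, 6.23, 6.62, 3.45 and 7.88 RPKM and fell by 1.91 (adjusted p = 2.62e-04). *Milr1*, an inhibitory receptor of mast cells also called Allergin, went from 8.61 ± 2.32 to 2.36 ± 0.574 RPKM (adjusted p = 5.90e-04). *Stap1*, a signalling adaptor, and *Tfec*, a relative of MITF, fell by 1.64 and 1.55. All 5 genes separated the groups fully. *Csrnp1*, a nuclear protein named for its induction by axin, fell by 1.58 and was held in 3 of 10 fits without 1 library (adjusted p up to 0.0778, without Vav-Ezh2-WT replicate 4), and the uncharacterized *2610034M16Rik* fell from 2.24 ± 0.648 to 0.659 ± 0.180 RPKM.

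Of 31 C-type lectin receptors, a family chosen after its values were seen, 4 fell and none rose, with a median change of -0.15 beside 0.01 over all genes tested. *Cd69*, which holds back egress of lymphocytes, was the most abundant, at 66.3, 115, 90.2, 116 and 146 RPKM in WT against 51.0, 37.2, 41.6, 20.1 and 32.0 RPKM in Tie2-Ezh2-KO (fell by 1.56, adjusted p = 0.00155). *Olr1*, a receptor for oxidized lipoprotein, and *Clec4d* and *Mgl2*, receptors of myeloid cells, were at means of 1.45 ± 0.483, 5.08 ± 1.10 and 2.43 ± 0.759 RPKM in WT against 0.324 ± 0.163, 1.92 ± 0.792 and 0.792 ± 0.406 RPKM in Tie2-Ezh2-KO. Each of the 4 was below WT in every knockout library. *Mgl2* was held in 4 of 10 fits without 1 library (adjusted p up to 0.0849, without Tie2-Ezh2-WT replicate 10). Of 55 adhesion and orphan G protein-coupled receptors 3 fell and none rose. *Mrgpra2a* and *Mrgpra2b*, near-identical neighbours whose reads may be shared, averaged 4.04 ± 2.18 and 3.21 ± 2.09 RPKM in WT against 0.553 ± 0.536 and 0.325 ± 0.322 RPKM in Tie2-Ezh2-KO. *Gpr174*, a lysophosphatidylserine receptor, fell by 1.44 and was held in 7 of 10 such fits (up to 0.0585, without Vav-Ezh2-WT replicate 4).

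Among the 45 interleukins and their receptors, *Il6* and the eosinophil receptor gene *Il5ra* fell. *Il5ra* was at 1.49, 1.32, 1.69, 1.29 and 1.85 RPKM in WT against 0.406, 0.479, 0.627, 0.682 and 0.455 RPKM in Tie2-Ezh2-KO (fell by 1.25, adjusted p = 0.0146), and *Il6* averaged 1.30 ± 1.08 and 0.135 ± 0.168 RPKM. Of 19 myeloid granule genes 2 fell, the neutrophil elastase gene *Elane*, from 15.3 ± 5.28 to 4.28 ± 3.96 RPKM, and *Mpo*, in the EMP set, from 1438 ± 274 to 868 ± 238 RPKM. Knockout values of *Elane* and *Mpo* reached into the WT range. The calls of *Il6*, *Elane* and *Mpo* were held in 6, 5 and 4 of 10 fits without 1 library, with adjusted p-values up to 0.0637, 0.0747 and 0.117 (all without Vav-Ezh2-WT replicate 4). No gene passed the test among 30 chemokines and their receptors (7 and 0), 24 Toll-like receptors and partners (3 and 0) and 8 Gimap GTPases (0 and 0). *Irak1* and *Gimap6*, the most abundant of the Toll-like and Gimap lists, averaged 96.5 ± 19.5 and 48.7 ± 12.7 RPKM in WT against 110.4 ± 17.5 and 44.5 ± 9.38 RPKM in Tie2-Ezh2-KO.

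Other families chosen after their values were seen are given beside the 2.73% that changed over all genes tested. Of 24 tetraspanins 3 rose, led by *Tspan33*, a tetraspanin of red cell progenitors, from 2.83 ± 1.24 to 16.6 ± 3.76 RPKM (log2 change 2.55), and *Cd53*, a leukocyte tetraspanin in the EC set, fell from 30.9 ± 7.91 to 12.6 ± 4.18 RPKM. Of 36 protease inhibitors 4 rose, *Serpine2*, *Spint1*, *Timp2* and *Spint2*, and *Serpinb1a* fell. *Timp2*, an inhibitor of matrix metalloproteinases, was at 0.663, 0.332, 1.07, 0.779 and 0.401 RPKM in WT against 4.35, 2.51, 4.21, 3.54 and 4.46 RPKM in Tie2-Ezh2-KO (log2 change 2.29, adjusted p = 5.16e-04). The 4 risen inhibitors separated the groups. Of 57 Rab GTPases 3 rose, *Rab20*, *Rab34* and *Rab38*, of 8 copines *Cpne2* and *Cpne7*, and of 11 MAP kinases *Mapk11* and *Mapk12*. *Rab38* and *Mapk12* lost their calls in fits without 1 library (adjusted p up to 0.0950 and 0.0759, both without Tie2-Ezh2-WT replicate 10).

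**Figure D2:**
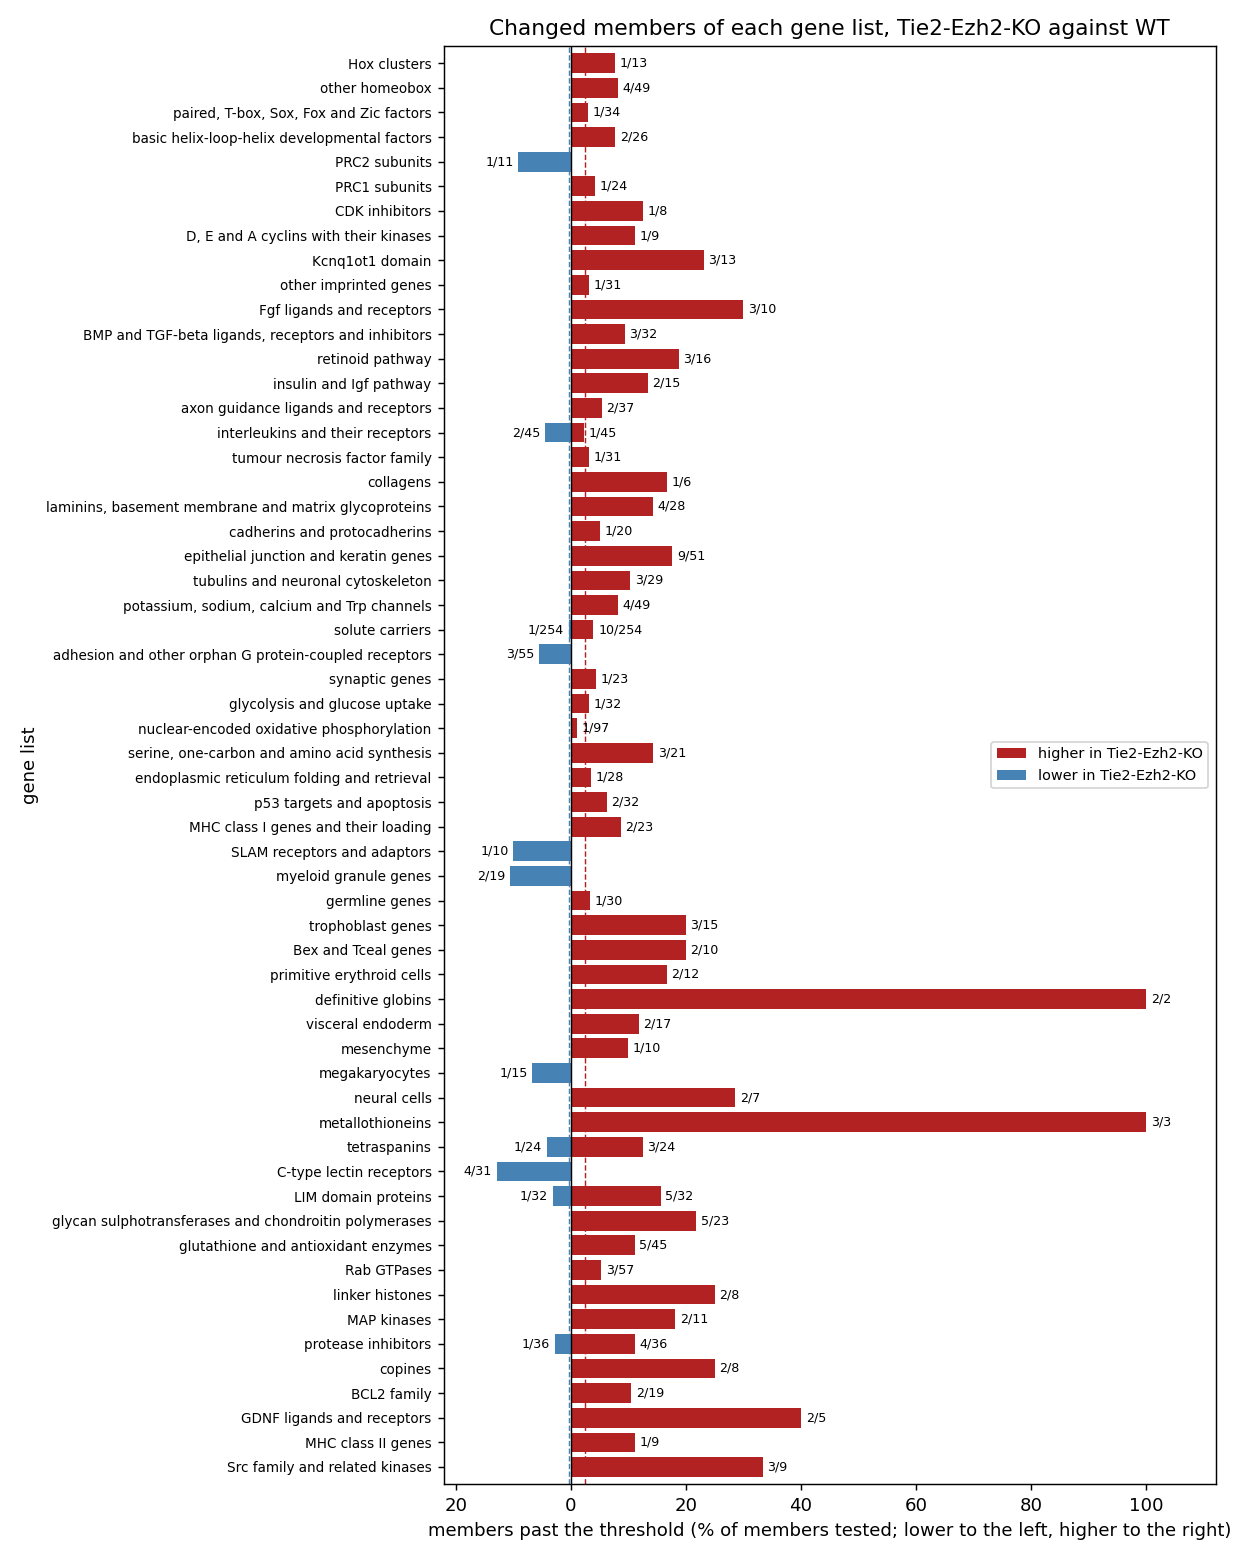
Members of each gene list past the limma threshold as a percent of those tested, higher to the right and lower to the left of 0, with counts beside the bars. The dashed lines mark the percent over all genes tested, 2.42% higher and 0.304% lower, and lists with no member past the threshold are not drawn. The lowest 15 lists were chosen after their values were seen.

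Some of the changed genes were abundant in WT EMPs. On the higher side these were, besides *Mt1*, *Commd3* and *H1f0*, the embryonic globin *Hbb-bh1*, *Dnph1* of nucleotide hydrolysis, *Mgst3*, *Chchd10* of the mitochondrial intermembrane space, *Smim5*, *Cenpv* and *Fkbp11*. *Cenpv*, a centromere-associated protein, was at 60.2, 53.8, 56.9, 47.7 and 30.4 RPKM in WT against 150.3, 167, 159, 121 and 127 RPKM in Tie2-Ezh2-KO (log2 change 1.57, adjusted p = 1.18e-04), and *Chchd10* went from 57.8 ± 7.79 to 111 ± 20.2 RPKM (log2 change 0.93). Both separated the groups. On the lower side, besides *Mpo*, *Cd69* and *Serpinb1a*, were *Srgn*, the core protein of granule proteoglycan, *Csrp1*, *Cited2*, a CBP and p300 binding regulator in the EMP set, *Emb*, *Gm15915*, *0610031J06Rik* and *Pros1*, protein S of the anticoagulant system. *Cited2* went from 104 ± 14.9 to 67.5 ± 4.66 RPKM and *Gm15915*, a predicted gene, from 90.9 ± 15.3 to 35.7 ± 15.4 RPKM. Of these abundant genes, *Hbb-bh1*, *Dnph1*, *Commd3*, *Mgst3*, *Smim5*, *Fkbp11*, *Srgn*, *Emb*, *0610031J06Rik*, *Pros1*, *Serpinb1a* and *Mpo* lost their calls in fits without 1 library, with adjusted p-values from 0.0595 (*Dnph1*, without Vav-Ezh2-WT replicate 6) to 0.144 (*0610031J06Rik*, without Vav-Ezh2-WT replicate 4).

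The changed genes were spread over the genome. On GRCm38, 384 could be placed, and the share of tested genes that changed ranged from 0.901% on chromosome 16 to 3.48% on chromosome 9 among the autosomes, with 3.39% on chromosome X. In 7 places at least 3 changed genes of the same direction, 22 genes in all and each higher, lay next to each other or with starts within 200000 bases. On chromosome 11 the run at chr11:32209585-32300873 held *Rhbdf1*, *Hba-x*, *Hbq1b* and *Hbq1a*, with *Mpg* and *Nprl3* tested in the span and not past the threshold. On chromosome 7 *Fgf3*, *Fgf15* and *Ccnd1* lay together at chr7:144838612-144939831, and on chromosome 17 *Psmb9*, *Psmb8* and *H2-Ab1* at chr17:34182030-34269418. On chromosome 2 the run at chr2:151996511-152149097 held *Slc52a3*, *Srxn1* and *Tcf15*, and on chromosome 4 that at chr4:130165600-130315463 held *Tinagl1*, *Serinc2* and *Fabp3*. *Mt3*, *Mt2* and *Mt1* at chr8:94152607-94180327 and *Arxes1*, *Bex2* and *Bex1* at chrX:136033367-136215513 made up the others. The runs on chromosomes 7, 17 and X each spanned 3 further tested genes that were not past the threshold. Leaving out Tie2-Ezh2-KO replicate 9 raised the genes in such runs from 22 to 38.

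Several run members are unrelated in function. *Fabp3*, a fatty acid binding protein of muscle, was at 1.35, 2.67, 1.22, 1.47 and 1.41 RPKM in WT against 9.12, 10.3, 10.9, 6.64 and 16.7 RPKM in Tie2-Ezh2-KO (log2 change 2.57, adjusted p = 9.68e-05), beside *Serinc2*, a membrane protein without WT reads and at least 10.96-fold higher, and *Tinagl1*, a matrix protein, at 0.0919 ± 0.173 and 1.25 ± 1.26 RPKM. The knockout libraries were above WT for all 3. *Rhbdf1*, an inactive rhomboid next to the alpha-globin cluster, went from 0.533 ± 0.239 to 1.87 ± 0.631 RPKM. *Arxes1*, an X-linked gene of fat cells, went from 3.83 ± 1.003 to 9.56 ± 1.64 RPKM.

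Globins and the markers of other cell types in the YS gave the following levels. Of 12 primitive erythroid markers, 4 of them in the study sets, *Hba-x* and *Hbb-bh1* rose. *Hba-x*, the embryonic alpha-type globin, was at 1.44, 0.316, 1.34, 1.01 and 2.67 RPKM in WT against 38.4, 305, 339, 32.9 and 117 RPKM in Tie2-Ezh2-KO (log2 change 6.33, adjusted p = 8.88e-05), and *Hbb-bh1* was at 137, 123.4, 139, 60.1 and 111.96 and 262, 277, 508, 158 and 165 RPKM. The knockouts were above all WT libraries for both and highest in replicate 11, with *Hba-x* between 32.9 and 339 RPKM among them. By limma-voom none of the 12 passed, with *Hba-x* at an adjusted p of 0.0787, and *Hbb-bh1* was held in 2 of 10 limma fits without 1 library (adjusted p up to 0.101, without Vav-Ezh2-WT replicate 4). The summed level of the 12 genes was 176, 145, 164, 82.5 and 136 RPKM in WT against 342, 601, 884, 224 and 310.5 RPKM in Tie2-Ezh2-KO, with *Hbb-bh1* the most abundant on average and *Hba-x* above it in replicate 9. The sort gate left out lineage-positive cells, with TER119 among the antibodies listed. The part of primitive erythroid RNA in the result was not tested. Of the theta globins, near-identical copies whose reads may be shared, *Hbq1b* was at 0, 0.423, 0.0326, 0 and 0 RPKM in WT against 6.38, 3.59, 3.79, 2.04 and 2.41 RPKM in Tie2-Ezh2-KO, and *Hbq1a* averaged 0.0161 ± 0.0361 and 1.004 ± 0.512 RPKM. These were the 2 of 8 listed definitive globin genes that could be tested, and their summed level was highest in replicate 7, at 7.83 RPKM.

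Of 18 endothelial markers tested, 12 of them in the study sets, none passed the test (4 and 0). The summed level of the 20 measured markers was between 166.6 and 199 RPKM in WT, against between 177 and 198 RPKM in Tie2-Ezh2-KO. *Egfl7*, the most abundant, averaged 119 ± 12.9 and 118 ± 7.96 RPKM and made up 62.1% of the mean knockout sum. Over the 18 markers the median change was 0.35, with 14 positive. Visceral endoderm markers gave 2 rises among 17 tested, *Amn* and *Epcam*, and their median change was 0.51, with 16 positive. Of 10 mesenchymal markers tested, 6 in the study sets, *Bmp4* rose. The summed level of the 17 measured markers was 3.20, 3.49, 2.82, 4.19 and 3.33 RPKM in WT against 6.76, 10.02, 6.89, 4.66 and 8.38 RPKM in Tie2-Ezh2-KO. *Bmp4* was the most abundant in Tie2-Ezh2-KO alone, at a mean of 0.251 RPKM in WT, and *Pdgfra* was at 0 in all 10 libraries. Of 7 neural markers tested, *Tubb3* and *Ncam1* rose. The summed level of the 11 measured markers was 0.754, 1.51, 1.33, 2.12 and 1.98 RPKM in WT against 4.44, 3.00, 4.68, 6.31 and 3.61 RPKM in Tie2-Ezh2-KO, with *Tubb3* the most abundant. For mesenchymal and neural markers every knockout sum was above every WT sum, at levels of a few RPKM. *Bmp4* made up 50.7% of the mean mesenchymal knockout sum and *Tubb3* 60.1% of the neural one. The height of these sums thus rests largely on genes already counted as changed. *Ncam1* was held in 9 of 10 fits without 1 library (adjusted p up to 0.0501, without Tie2-Ezh2-WT replicate 12). The part of these cell types in the results on matrix, epithelial and neuronal genes was not tested.

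Among blood lineages, none of 11 macrophage markers tested passed (2 and 0). Sums of the 15 measured markers lay between 74.7 and 114 RPKM in WT, against between 81.3 and 88.8 RPKM in Tie2-Ezh2-KO. *Lyz2* was the most abundant, and *C1qa* was at 0 in all 10 libraries. None of 6 mast cell and basophil markers tested passed (1 and 0). Sums of the 7 measured markers lay between 98.3 and 215 RPKM and between 100.6 and 169.8 RPKM, with *Gata2* the most abundant and *Mcpt8* at 0. Of 15 megakaryocyte markers, 12 in the study sets, *Gp1ba*, a platelet receptor for von Willebrand factor, fell by 0.94, a call held in 2 of 10 fits without 1 library (adjusted p up to 0.146, without Vav-Ezh2-WT replicate 4). The megakaryocyte sum was between 264 and 515 RPKM in WT, against between 299.96 and 449.6 RPKM in Tie2-Ezh2-KO. The groups overlapped in all 3 sums. None of 5 sex-linked genes passed the test (0 and 0), and *Eif2s3y*, on the Y chromosome, was at 0 in 2 WT libraries and 1 Tie2-Ezh2-KO library.

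**Figure D3:**
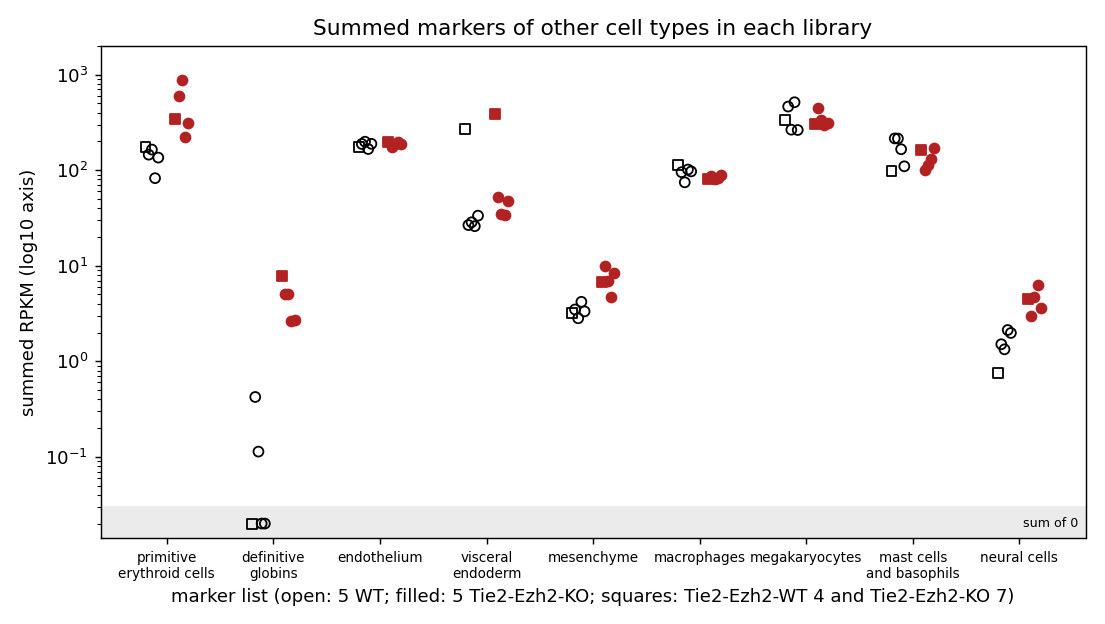
Summed RPKM of the markers of 9 cell types in each of the 10 libraries, on a log10 axis; open circles are WT and filled circles Tie2-Ezh2-KO libraries, and squares mark Tie2-Ezh2-WT replicate 4 and Tie2-Ezh2-KO replicate 7. Those libraries stand apart in visceral endoderm markers, at 272 and 388 RPKM.

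Tie2-Ezh2-KO was also set beside the 5 Vav-Ezh2-KO libraries, in which Cre acts after blood specification. Of 14120 genes tested between the knockouts, 495 (3.51%) passed the threshold, 372 of them higher in Tie2-Ezh2-KO. Both comparisons share the Tie2-Ezh2-KO libraries, so their values are given side by side and no overlap is read. Genes were chosen here after their values were seen. *Kdelr3* averaged 0.223 ± 0.308 RPKM in Vav-Ezh2-KO, *Esx1* 0.130 ± 0.235 RPKM, *Bmp4* 0.607 ± 0.609 RPKM and *Fgf3* 9.79 ± 2.71 RPKM. With log2 changes of Tie2-Ezh2-KO over Vav-Ezh2-KO of 3.49, 4.62, 2.48 and 1.84, adjusted p was 3.73e-04, 3.70e-05, 0.0265 and 3.73e-04. *Bmi1* averaged 14.7 ± 5.01 RPKM and *Psmb8* 38.4 ± 9.89 RPKM in Vav-Ezh2-KO, with log2 changes between the knockouts of 1.48 (adjusted p = 8.13e-04) and 0.93 (adjusted p = 0.00476). *Cd48* averaged 38.4 ± 8.39 RPKM and *Cd69* 121 ± 41.8 RPKM there, with log2 changes of -1.92 (adjusted p = 0.00224) and -1.72 (adjusted p = 0.00121). Some other genes changed against WT did not pass between the knockouts: *Mt1*, *H1f0* and *Gpc1* averaged 496 ± 134.4, 76.4 ± 21.6 and 0.707 ± 0.396 RPKM in Vav-Ezh2-KO, with adjusted p-values of 0.547, 0.231 and 0.158. Whole-gene *Ezh2* averaged 37.2 ± 3.56 RPKM in Vav-Ezh2-KO, beside 38.0 ± 4.84 RPKM in WT, and itself differed between the knockouts (log2 change -0.46, adjusted p = 0.0269), a value that does not measure the deleted exons by themselves. The number of genes past the threshold was 969 without Tie2-Ezh2-KO replicate 9 and 320 without Vav-Ezh2-KO replicate 28.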

How the data were processed

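RNA sequencing values were taken from the deposited table of RPKM, which the authors made, per the submitters' processing notes, from TopHat2 2.0.13 alignments to GRCm38 (mm10) and featureCounts. Reads per gene were recovered from the steps between RPKM values. The length used for each gene was derived from its own values so that reads came out whole, so whole reads are no check. Recovered reads summed to between 99.99807% (Tie2-Ezh2-KO replicate 7) and 99.99968% (Tie2-Ezh2-WT replicate 10) of the library totals. Genes above 0.2 RPKM in at least 1 of the 10 libraries compared were tested on log2(RPKM + 0.2) with limma 3.58.1 (lmFit, eBayes with trend) in R 4.3.3, with Benjamini-Hochberg adjustment over all tested genes and a threshold of 0.05. DESeq2, the authors' method, was not run. Other steps used Python 3.11.15, numpy 2.4.6, pandas 2.3.3 and scipy 1.17.1. The labels give no batch, so no batch term was fitted. The procedure was tested on simulated data, with changes planted only in genes with a mean above 1 RPKM in the control group. For Tie2-Ezh2-KO against WT, 69 of 100 genes changed 2-fold and 99 of 100 changed 4-fold were recovered, with 10 other genes called. Changes in genes under 1 RPKM in WT, which include 196 of the 343 higher genes, were not simulated.

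Genes were named by this rule: the 20 largest rises and 12 largest falls past the threshold, outside the gene sets of the study and without overlap between groups; in each gene list up to 4 members past the threshold, or its most abundant member; the 10 most abundant changed genes in each direction; members of runs of at least 3 changed neighbours; and *Ezh2*. Other genes are said to be chosen after their values were seen. Some genes that meet the rule are not reported here. The members, lists and rule were chosen with earlier results of these data known. Lists are described by counts and medians, with no test. Genes were placed on GRCm38 with RefSeq, and promoter sequences cover under 80% of the changed genes, so that a summary of promoter features is void and is not given.

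Alternatives were other pseudocounts (1 and 0.05), no filter or a filter of 1 RPKM in at least 3 libraries, scaling to a common median, no trend, quantile normalization, limma-voom on recovered reads, all 15 libraries in 1 fit, array weights, each WT group alone, leaving out each library, and leaving out 2 libraries together, the last chosen after seeing the data.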

Additional observations from a re-analysis of the deposited data

Results flagged for a closer look

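Single libraries lay far from the others of their group for 36 of 388 groups checked, where chance flags about 1 in 20 groups, so that about this share is to be allowed for in any pattern among them. Genes and marker sums named in the text were checked on the log2(RPKM + 0.2) scale for genes and on RPKM for sums. Many are genes at or near 0 in WT, where a few reads in 1 library decide the gap.

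The clearest pattern was in visceral endoderm genes. Their summed level was 272 RPKM in Tie2-Ezh2-WT replicate 4 and 388 RPKM in Tie2-Ezh2-KO replicate 7, against 25.9 to 33.4 RPKM and 34.4 to 52.8 RPKM in the other libraries of each group. *Apoa1* was at 47.6 RPKM in Tie2-Ezh2-WT replicate 4, and *Trf* at 51.6 RPKM in Tie2-Ezh2-KO replicate 7. In Tie2-Ezh2-WT replicate 4, *Bmi1* was highest at 15.6 RPKM, *Esx1* at 0.180 RPKM and *Tinagl1* at 0.398 RPKM. In Tie2-Ezh2-KO replicate 7, *Crip1* was highest at 99.3 RPKM and *Ccnd1* lowest at 1.64 RPKM.

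Tie2-Ezh2-WT replicate 10 was highest for *Fabp3* at 2.67 RPKM, *Gpx7* at 0.313 RPKM and *Hbq1b* at 0.423 RPKM, and lowest for *Lck* at 0.798 RPKM, *Mpg* at 11.9 RPKM and *Mir93* at 0. Tie2-Ezh2-WT replicate 12 was highest for *Chst10* at 0.0860 RPKM, *Fgf15* at 0.162 RPKM, *Hbq1a* at 0.0807 RPKM and *Kcne1l* at 0.320 RPKM. Vav-Ezh2-WT replicate 4 was lowest for *Ascl2* at 0.0833 RPKM and *Hbb-bh1* at 60.1 RPKM, and highest for *Crabp2* at 0.373 RPKM, *Ltbp3* at 0.116 RPKM and *Msx2* at 0.0932 RPKM. Vav-Ezh2-WT replicate 6 was lowest for *Ephb2*, at 0.

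Tie2-Ezh2-KO replicate 9 was lowest for *Mbd3* at 126 RPKM, *Rrm2* at 447 RPKM, *Slc6a20a* at 0.207 RPKM and *Tspan33* at 10.02 RPKM, and highest for the megakaryocyte sum at 449.6 RPKM. Tie2-Ezh2-KO replicate 13 was lowest for *2610034M16Rik* at 0.348 RPKM, *Glipr1* at 3.45 RPKM, *Ldhb* at 24.3 RPKM and *Tcf15* at 3.96 RPKM. Tie2-Ezh2-KO replicate 11 was lowest for *Eif2s3y*, at 0, and Tie2-Ezh2-KO replicate 17 was highest for *Tinagl1*, at 3.49 RPKM. The knockouts differed from each other in 495 genes by the limma test of Tie2-Ezh2-KO against Vav-Ezh2-KO.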

How the results depend on the processing

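The 386 changed genes became 187 with the Tie2-Ezh2-WT libraries alone as controls and 121 with the Vav-Ezh2-WT libraries alone, alternatives with fewer samples, and 217 without both libraries high in visceral endoderm genes, chosen after seeing the data. There were 533 with array weights and 492 with all 15 libraries in 1 fit. Without 1 library at a time there were 262 to 438. The comparison of the knockouts gave 320 to 969 genes without 1 library, against 495. The share of higher genes, 88.9%, was 95.7% with Tie2-Ezh2-WT alone, 92.3% with limma-voom on recovered reads, 91.9% without a filter on low values, 82.3% under quantile normalization, and 86.8% to 93.5% without 1 library.

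Of the genes chosen for naming by fixed rules, 162 were past the threshold. The number was 98 with Tie2-Ezh2-WT alone, 59 with Vav-Ezh2-WT alone, 105 without both libraries high in visceral endoderm genes, and 121 to 144 without 1 library. Genes in neighbouring runs, 22, were 3 with Vav-Ezh2-WT alone, 43 with array weights, and 19 to 38 without 1 library. The median WT level of the higher genes, 0.649 RPKM, was 1.498 RPKM when genes had to exceed 1 RPKM in at least 3 libraries, an alternative that leaves out low genes by construction, and 0.571 to 0.754 RPKM without 1 library. Where not stated, the cause was not tested. None of the 162 genes reversed its direction in any of the 23 alternatives. These reuse the same libraries, and the genes were picked for passing the threshold, so kept directions are no test of stability. In all 23 alternatives 76 of the 386 genes stayed past the threshold, and 217 of the 386 in all 10 that left out 1 library. Of the 343 higher genes, 196 had a mean under 1 RPKM in WT, and for those near 0 a few reads decide a value.

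No paired analysis was possible because the labels give no pairing, and the replicate numbers 7, 9, 11, 13 and 17 of Tie2-Ezh2-KO share none with those of WT.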
